A study of Homo sapiens with 6 samples.

Results

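AP-1 is a family of transcription factors that bind DNA as pairs joined by a leucine zipper. JUN proteins pair with each other or with FOS proteins, whereas FOS proteins bind DNA only with a partner, and the pairs read the palindrome TGACTCA and its longer relative TGACGTCA. In epithelial cancer cells AP-1 sits at enhancers together with YAP or TAZ and the TEAD factors, where it is known for growth and invasion genes. Transcripts of 8 AP-1 genes, chosen by symbol, were followed among the 15832 genes of the deposited table: the JUN family (JUN, JUNB and JUND), the FOS family (FOS, FOSB, FOSL1 and FOSL2) and BATF3, a short bZIP protein that pairs with JUN proteins.

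The study transfected AsPC-1 cells, a human pancreatic cancer line, for 48 h with an siRNA against VCPIP1 (siVCPIP1, 3 libraries) or with a control siRNA (siControl, 3 libraries), with no other treatment or genotype named. VCPIP1 encodes a deubiquitinating enzyme of the p97 system, and the series title names it together with the Hippo pathway and YAP in pancreatic cancer. Total RNA was sequenced, and each library has a TPM value per gene (the share of a library's transcripts, scaled for length) with an unknown read depth. No source used here says whether replicates were grown as separate cultures or which siRNA sequences were used. The p-values therefore reflect how far these libraries scatter, and that scatter may be technical. In such a measurement, fewer cells that express a gene and less of its mRNA per cell cannot be told apart.

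Where the genes lie was read from GENCODE release 29 (GRCh38). The JUN genes each have 1 exon. JUN is on chromosome 1 from 58780788 to 58784327 (minus strand), JUNB on chromosome 19 from 12791496 to 12793315 (plus strand) and JUND on chromosome 19 from 18279760 to 18281622 (minus strand). The FOS genes have 4 exons each, with FOS on chromosome 14 from 75278774 to 75282230, FOSB on chromosome 19 from 45467995 to 45475178 and FOSL2 on chromosome 2 from 28392858 to 28417312, all on the plus strand. FOSL1 is on chromosome 11 from 65892220 to 65900526 and BATF3, with 3 exons, on chromosome 1 from 212686418 to 212699985, both on the minus strand. Of the 8 genes, only JUNB shares exon bases with another annotated gene, 259 nt with HOOK2 on the opposite strand. The strand setting of the authors' counting is not given in the sources used here, so reads of JUNB and HOOK2 cannot be told apart in that stretch. HOOK2 had 12.5 ± 1.59 TPM in siVCPIP1 and 13.8 ± 1.01 TPM in siControl (SD, n = 3 each).

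Promoters of 300 bases around the RefSeq start (GRCh38.p14) were found for 6 of the 8 genes, FOSL1 and BATF3 being the others. They were searched on both strands for the AP-1 motif TGANTCA and for its longer relative TGACNTCA, which cannot overlap each other, because AP-1 proteins are known to act on the genes that encode them. TGANTCA occurs in 7.71% and TGACNTCA in 7.72% of the 35116 promoters of that length. JUND and JUN held a TGACNTCA match and FOSL2 a TGANTCA match, shown in capitals, 5′ to 3′ on the gene's strand, and JUNB, FOS and FOSB held neither in this window. The JUND promoter is chr19:18281573-18281872 (minus strand), the JUN promoter chr1:58783998-58784297 (minus strand) and the FOSL2 promoter chr2:28392608-28392907 (plus strand). The JUN exon given above runs from 58780788 to 58784327, so the whole JUN window lies inside it. In that annotation the JUN window is transcribed sequence, and only the RefSeq start makes part of it upstream. A match is a run of letters, not a measured site.
JUND: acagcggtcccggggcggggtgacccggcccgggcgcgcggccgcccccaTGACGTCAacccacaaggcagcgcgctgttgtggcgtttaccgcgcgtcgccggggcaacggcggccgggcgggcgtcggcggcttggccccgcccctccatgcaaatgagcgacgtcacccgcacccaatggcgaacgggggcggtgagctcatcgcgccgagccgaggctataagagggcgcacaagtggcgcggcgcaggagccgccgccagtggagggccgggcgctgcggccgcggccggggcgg
JUN: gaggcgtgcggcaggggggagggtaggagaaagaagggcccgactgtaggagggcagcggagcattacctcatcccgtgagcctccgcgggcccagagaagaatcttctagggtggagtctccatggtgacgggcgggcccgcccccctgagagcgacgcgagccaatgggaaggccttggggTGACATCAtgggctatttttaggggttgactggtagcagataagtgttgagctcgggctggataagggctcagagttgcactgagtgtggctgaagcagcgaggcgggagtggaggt
FOSL2: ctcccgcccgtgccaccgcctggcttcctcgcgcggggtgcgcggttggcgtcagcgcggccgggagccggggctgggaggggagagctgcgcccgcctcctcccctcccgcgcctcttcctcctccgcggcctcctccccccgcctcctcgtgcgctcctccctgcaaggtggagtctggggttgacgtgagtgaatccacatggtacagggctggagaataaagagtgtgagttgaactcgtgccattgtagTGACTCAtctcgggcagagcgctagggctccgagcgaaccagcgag

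The JUND match, TGACGTCA, spans bases -200 to -193 from the RefSeq start. The JUN match, TGACATCA, spans bases -67 to -60 from its RefSeq start, within the JUN exon by the gene coordinates above. The FOSL2 match, TGACTCA, spans bases 4 to 10 downstream of its RefSeq start. The JUN, JUNB and JUND promoters also held a CCAAT box, found in 34.6% of all promoters. None of the 6 held the TEAD core GGAATG (14.03% of all promoters) or the SRF CArG box (1.29%) in this window. The FOS window was chr14:75278578-75278877 (plus strand). Sequence outside the windows was not searched, so sites further upstream would be missed.

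FOS-type messages are also known for rapid decay through AU-rich stretches of the 3′ UTR built on a pentamer that reads ATTTA in DNA letters. The 3′ UTR of FOS, 806 nt long, held 5 such pentamers, or 6.20 per kb. FOSL2 held 9 in 4864 nt (1.85 per kb), JUN 3 in 1287 nt (2.33 per kb), JUNB 2 in 500 nt (4.0 per kb), and FOSL1 and JUND 1 each in 666 and 681 nt. Among the genes tested, 63.5% held at least 1, and the median over 3′ UTRs of 100 nt or more was 1.51 per kb. The 30-base windows of FOS, which has overlapping pentamers, and of FOSL2, FOSL1 and JUND are shown with the pentamers in capitals. They lie at chr14:75282057-75282086, chr2:28416348-28416377, chr11:65892272-65892301 and chr19:18279998-18280027 (GRCh38), on each gene's own strand.
FOS: ttgtgtttttaATTTATTTAttaagatgga
FOSL2: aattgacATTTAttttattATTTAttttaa
FOSL1: gagggcagctgctATTTAttttcctaaaga
JUND: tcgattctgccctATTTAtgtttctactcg

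Several facts of the whole series bear on every value below. The median TPM over all genes was 1.26, 1.24 and 2.26 in the siVCPIP1 libraries, against 6.70, 7.44 and 6.18 in the siControl libraries. Genes with under 45% GC held 4.81% ± 1.18 of TPM in siVCPIP1 and 14.5% ± 1.09 in siControl (SD, n = 3 each). Within siVCPIP1, replicate 3 stood apart: 84.0% of the genes tested lay nearest the siControl mean in it. VCPIP1 itself had 0.12, 0.11 and 0.27 TPM in siVCPIP1, against 2.93, 3.06 and 2.24 TPM in siControl, a log2 fold change of -1.68 that lay at 0.24 once GC content and length were corrected for (limma, adjusted p = 0.0862). All 8 epithelial markers averaged at least 1 TPM, with a summed level of 21236 to 23919 TPM in siVCPIP1 and 14095 to 16209 TPM in siControl, most of it keratins. CDH1 (E-cadherin) was at 0.42, 0.28 and 1.33 TPM in siVCPIP1, against 27.5, 31.7 and 27.6 TPM in siControl. The 6 fibroblast markers measured summed to between 1.5 and 4.51 TPM in siVCPIP1 and 45.3 to 69.0 TPM in siControl, nearly all of it LUM. The 5 immune markers summed to 122.7 to 159.4 TPM in siVCPIP1 and 144.9 to 150.9 TPM in siControl, nearly all of it CD68, and the 2 endothelial markers to at most 0.56 TPM in siVCPIP1 and 1.30 TPM in siControl. Of the 7 fibroblast, 7 immune and 4 endothelial markers chosen, those not counted here had no values. No marker measured was at 0 in all 6 libraries, and the part of other cell types in the results was not tested.

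Among the 8 genes followed, the message in AsPC-1 cells was mostly FOSL1, and their summed level overlapped between the groups. Summed over the 8 genes, AP-1 amounted to 687.4, 609.6 and 845.7 TPM in siVCPIP1, against 651.4, 665.7 and 613.9 TPM in siControl. Of the 5 members that passed the filter for testing (averaging 1 TPM or more across all 6), JUND was higher in siVCPIP1, none was lower and 4 were not called (limma, adjusted p under 0.05). Among all 10966 genes tested, 15.0% were called higher and 66.0% lower. The groups did not overlap in JUND, which was higher, nor in FOS, which was lower and under the filter. Of all genes tested, which do not include FOS, 18.2% were higher without overlap, 67.9% lower, and 86.0% one or the other. The order of mean levels was the same in both groups for the 5 genes at the top: FOSL1, JUNB, JUND, FOSL2 and JUN.

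**Figure D1:**
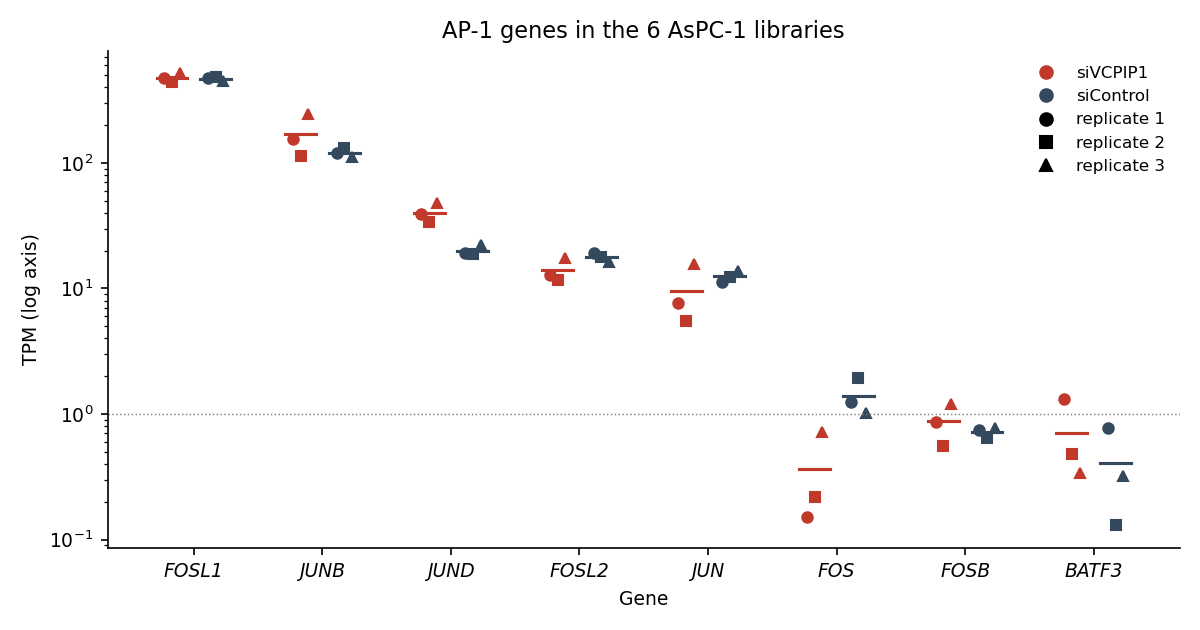
TPM of the 8 AP-1 genes (log axis) in the 3 siVCPIP1 libraries (red) and the 3 siControl libraries (dark blue), with a marker shape per replicate, a bar for each group mean and a dotted line at 1 TPM. JUND lies higher in all 3 siVCPIP1 libraries and FOS lower, while siVCPIP1 replicate 3 (triangle) is the highest siVCPIP1 library in 7 of the 8 genes.

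FOSL1 (FRA-1), the FOS protein best known from invasive carcinoma cells, was the most abundant AP-1 message in all 6 libraries. It had 471.1, 443.5 and 517.7 TPM in siVCPIP1, against 478.9, 482.8 and 448.8 TPM in siControl. The groups overlapped throughout, at 477.4 ± 37.5 and 470.1 ± 18.6 TPM (SD, n = 3 each). On the log2(TPM + 1) scale, used for every fold change below, the difference was 0.02 (SE 0.11, limma, adjusted p = 0.875). It ranked 302nd, 316th and 274th among all genes in siVCPIP1 and 294th, 292nd and 318th in siControl. FOSL1 made up 67.5% ± 5.83 of AP-1 TPM in siVCPIP1 and 73.0% ± 0.50 in siControl.

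FOSL2 (FRA-2), its closest relative in the family, had 12.8, 11.7 and 17.5 TPM in siVCPIP1, against 19.0, 17.9 and 16.4 TPM in siControl. siVCPIP1 replicates 1 and 2 lay below all siControl libraries and replicate 3 among them. The change was -0.34 (SE 0.20, limma, adjusted p = 0.136), and -0.50 without siVCPIP1 replicate 3 (adjusted p = 0.00197), so that 1 library ended the call. Without that library 16.9% of all genes were called higher and 70.9% lower. Its place among all genes moved the other way, at rank 3770, 3858 and 3808 in siVCPIP1 and 5028, 5453 and 5339 in siControl. Similar TPM ranked higher in siVCPIP1, where the median TPM was lower. For instance, 12.8 TPM ranked 3770th in siVCPIP1 replicate 1, whereas 12.39 TPM, the JUN value, ranked 6485th in siControl replicate 2. The share of all genes that moved up in rank was not computed.

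FOS, the founding member and an immediate-early gene, had 0.15, 0.22 and 0.72 TPM in siVCPIP1, against 1.25, 1.94 and 1.01 TPM in siControl. All siVCPIP1 libraries lay below all siControl libraries, with a mean at 26.0% of that of siControl. FOS averaged 0.882 TPM and so lay under the filter. Fitted with no filter over all 15832 genes, of which 54.6% were called lower and 11.3% higher, its change was -0.82 (SE 0.19, limma, adjusted p = 0.00667). The FOS transcript has 52.6% GC. Among tested genes of 50.5% to 53.7% GC, the median change was -0.92 and 69.8% were lower. The other scalings and the GC correction were fitted only to genes over the filter, so they give no value for FOS. The rank of FOS among all genes overlapped between the groups, with 12142, 11432 and 10295 in siVCPIP1 and 11024, 10575 and 11155 in siControl. FOSB, a second immediate-early FOS gene, had 0.86, 0.56 and 1.20 TPM in siVCPIP1, against 0.74, 0.65 and 0.78 TPM in siControl, and the groups overlapped. With no filter its change was 0.11 (SE 0.13, limma, adjusted p = 0.501).

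JUND, the JUN protein that is usually present in resting cells too, had 38.9, 33.7 and 47.6 TPM in siVCPIP1, against 19.3, 18.8 and 22.1 TPM in siControl. Every siVCPIP1 library lay above every siControl library. Its mean was 40.1 ± 7.0 TPM in siVCPIP1 and 20.04 ± 1.81 TPM in siControl (SD, n = 3 each), 2.0-fold higher, and the difference on the log2 scale was 0.95 (SE 0.18, limma, adjusted p = 0.000897). Leaving out any 1 library gave 0.83 to 1.07, called each time, whereas correction for GC content and length gave 0.38 and ended the call (adjusted p = 0.118). The change lay above that of 96.1% of the genes tested. JUND ranked 2194th, 2319th and 2179th in siVCPIP1 and 4997th, 5309th and 4553rd in siControl. The lower median TPM of siVCPIP1 bears on these ranks too. JUND has the highest GC content of the 8 transcripts, 69.7%, above that of 99.5% of the genes tested.

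JUNB, a JUN protein that often restrains JUN, had 154.7, 114.0 and 245.0 TPM in siVCPIP1, against 120.2, 131.2 and 110.8 TPM in siControl. siVCPIP1 replicates 1 and 3 lay above all siControl libraries and replicate 2 among them. The change was 0.43 (SE 0.25, limma, adjusted p = 0.137). Without siVCPIP1 replicate 2 it was 0.69 (adjusted p = 0.01804), and without replicate 3 it was 0.14 (adjusted p = 0.331), so the call and the size both turned on single libraries. Without replicate 2, 12.7% of all genes were called higher and 61.7% lower.

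JUN, the prototype of the family and a substrate of the JNK kinases, had 7.64, 5.53 and 15.7 TPM in siVCPIP1, against 11.3, 12.4 and 13.7 TPM in siControl. siVCPIP1 replicates 1 and 2 lay below all siControl libraries and replicate 3 above all of them. The change was -0.46 (SE 0.32, limma, adjusted p = 0.219). Without siVCPIP1 replicate 3 it was -0.84 (adjusted p = 4.2e-05). By rank, JUN stood higher in all 3 siVCPIP1 libraries, at 4563, 5048 and 4003, than in siControl, at 6457, 6485 and 5800. As for FOSL2, the lower median TPM of siVCPIP1 bears on these ranks, and the share of all genes that rose likewise was not computed.

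BATF3, best known from dendritic cells, had 1.31, 0.48 and 0.34 TPM in siVCPIP1, against 0.78, 0.13 and 0.32 TPM in siControl. The groups overlapped, and with no filter the change was 0.26 (SE 0.23, limma, adjusted p = 0.363). Of the 8 genes it was the only one that was not highest in replicate 3 among the siVCPIP1 libraries. That placing held for the other 7 members (87.5%) and for 78.7% of all genes tested, so it was common in this library. For JUNB, JUND and FOSL1, replicate 3 was not the siVCPIP1 library nearest the siControl mean, whereas for JUN and FOSL2 it was.

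Ratios between members of 1 library do not depend on a common scaling factor. The JUND to JUN ratio was 5.09, 6.09 and 3.03 in siVCPIP1, against 1.70, 1.51 and 1.61 in siControl. JUNB to JUN stood at 20.2, 20.6 and 15.6 in siVCPIP1 and at 10.6, 10.6 and 8.07 in siControl. FOSL1 to FOSL2 was 36.8, 38.0 and 29.6 in siVCPIP1 and 25.2, 26.9 and 27.4 in siControl, also without overlap. FOSL1 to JUND was lower in siVCPIP1, at 12.1, 13.2 and 10.9, against 24.9, 25.7 and 20.3 in siControl. The FOSL1 to JUN, FOSL1 to JUNB, JUND to JUNB and FOSL2 to JUN ratios overlapped between the groups. How often ratios of other gene pairs overlap was not computed. The JUN genes together held 29.3%, 25.1% and 36.4% of AP-1 TPM in siVCPIP1, against 23.1%, 24.4% and 23.9% in siControl. The difference of the means was 6.48 percentage points, and 3.40 without siVCPIP1 replicate 3. In each ratio whose groups did not overlap, the member with the higher GC content gained: JUND (69.7%), JUNB (64.9%), FOSL1 (60.04%), JUN (56.7%) and FOSL2 (53.3%). With GC content and length corrected for, the changes were -0.07 for JUNB against 0.16 for JUN, and -0.23 for FOSL1 against 0.79 for FOSL2, so both of these ratios turned direction. Quantile normalization turned them too, with 0.65 for JUNB against 0.99 for JUN and 0.02 for FOSL1 against 0.92 for FOSL2. JUND to JUN and FOSL1 to JUND kept their direction in both, with JUND at 0.38 after the correction and at 1.96 under quantile normalization.

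**Figure D2:**
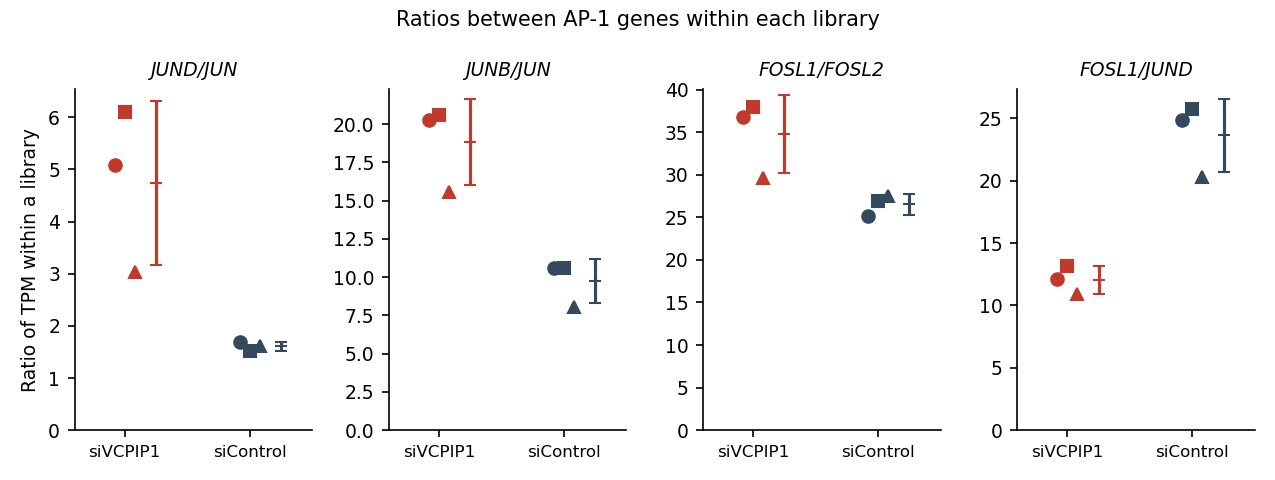
Ratios of TPM between AP-1 genes within each library, with the 3 siVCPIP1 libraries (red) left of the 3 siControl libraries (dark blue), a marker shape per replicate, and mean ± SD beside them. The 4 ratios shown are those, among the ratios computed, whose groups did not overlap, and FOSL1/JUND is the one that was lower in siVCPIP1.

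TPM is a share, so a direction can depend on what the libraries are scaled to. The median gene tested lay at -1.12, and all 5 tested members lay above it: the changes of JUNB, FOSL1, FOSL2 and JUN were above those of 86.1%, 76.3%, 68.0% and 65.5% of the genes tested. After median-of-ratios scaling, which moved the median gene to -0.14, all 5 were called higher, where 40.3% of genes were higher and 45.1% lower. JUND was then at 2.14, JUNB at 1.66, FOSL1 at 1.25, FOSL2 at 0.81 and JUN at 0.66. After quantile normalization, with the median gene at 0.04 and 42.2% of genes called higher and 38.8% lower, 4 of the 5 were higher and FOSL1 stayed at 0.02 (limma, adjusted p = 0.862). JUN and FOSL2 thus changed direction with the scaling, at 0.99 and 0.92 under quantile normalization, and JUND lay above 0 under each of these scalings.

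The change in TPM also ran with GC content over all genes, and the members lie above the median GC content of the genes tested. FOS and FOSL2 lie nearest that median, above 56.8% and 59.0% of the genes tested. JUNB and JUND fell in the uppermost of 10 bins of genes by GC content, where the median change was 0.47, with 55.04% of genes called higher and 13% lower. FOSL1 fell in the bin of 59.6% to 62.9% GC, with a median change of 0.19. JUN fell in the bin of 53.7% to 56.8%, with a median change of -0.44, next to its own -0.46. FOSL2 fell in the bin of 50.5% to 53.7%, with a median of -0.92, below its own -0.34. With each library's trend on GC content and transcript length removed, 37.9% of genes were called higher and 31.5% lower. FOSL2 was then higher by 0.79 (SE 0.10, limma, adjusted p = 0.000315). JUND lay at 0.38 (SE 0.20) and was not called, FOSL1 lay at -0.23 (adjusted p = 0.0501), JUN at 0.16 (adjusted p = 0.501) and JUNB at -0.07 (adjusted p = 0.833).

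**Figure D3:**
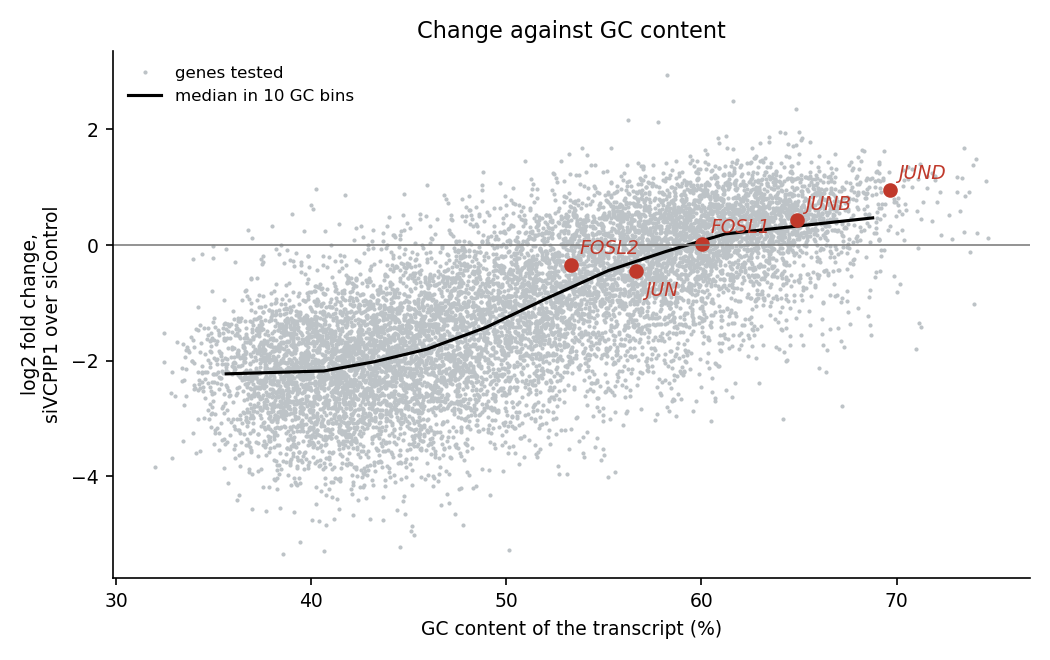
Log2 fold change of each gene tested, siVCPIP1 over siControl, against the GC content of its transcript, with the median of 10 GC bins as a line and the 5 tested AP-1 genes in red. JUN, JUNB and FOSL1 lie near the line, and JUND at 0.95 and FOSL2 at -0.34 lie above it.

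**Figure D4:**
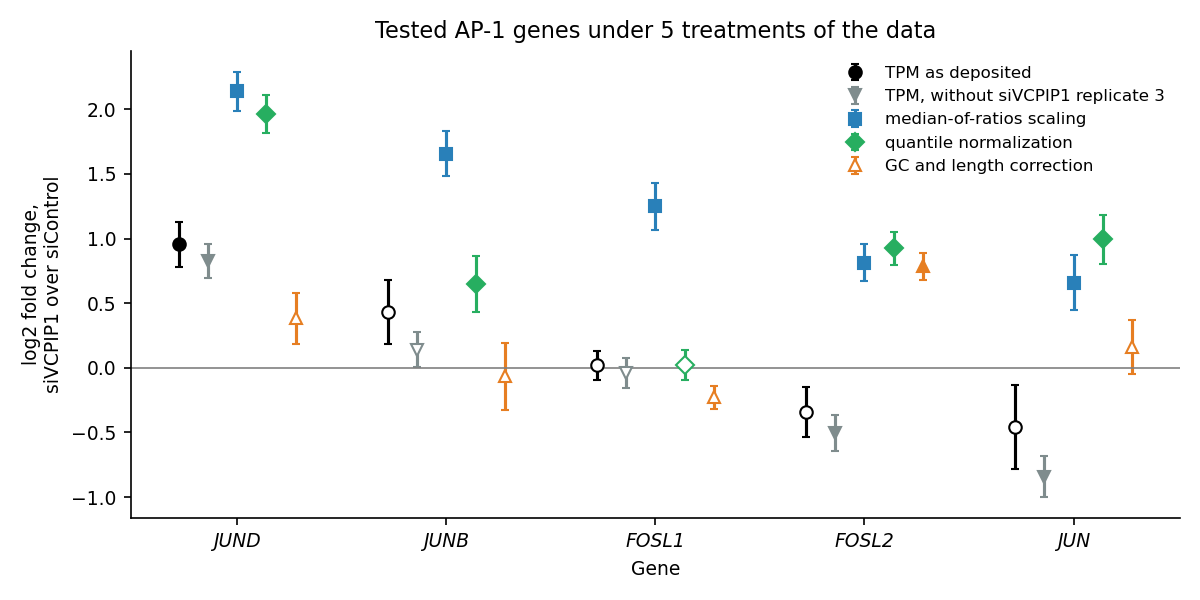
Log2 fold change (siVCPIP1 over siControl) with its standard error for the 5 tested AP-1 genes under 5 treatments of the data; filled symbols passed an adjusted p of 0.05 and open ones did not. FOSL2 and JUN lie below 0 in TPM and above 0 under median-of-ratios scaling, quantile normalization and GC correction, while JUND lies above 0 in all 5.

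For each tested member, the genes with the most similar profile over the 6 libraries were sought among 7731 other genes that averaged 5 TPM or more, by the Euclidean distance of log2(TPM + 1) after centring each gene. JUND lay nearest to SESN2 (distance 0.13), CSRNP1 (0.15) and DDIT3 (0.18). SESN2 averaged 16.3 ± 2.97 TPM in siVCPIP1 and 7.78 ± 0.47 TPM in siControl (SD, n = 3 each). CSRNP1 averaged 15.2 ± 3.22 TPM in siVCPIP1 and 7.38 ± 0.22 TPM in siControl. JUNB lay nearest to RND1 (0.23), PPP1R15A (0.26) and IER3 (0.26), none of them called; RND1, for one, averaged 10.7 ± 3.84 TPM in siVCPIP1 and 7.06 ± 0.92 TPM in siControl. JUN lay nearest to MED24 (0.25), BRD2 (0.26) and PFDN2 (0.26). FOSL1 lay nearest to JADE2 (0.07), PPM1F (0.07) and PIGL (0.08), and FOSL2 to KXD1 (0.09), MAP7D1 (0.10) and MARK2 (0.10). The points share their libraries, and the distances are descriptions.

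Genes that work around AP-1 were counted in the same fit, beside 66.0% of all genes lower and 15.0% higher. Of 13 tested bZIP proteins that can pair with JUN or FOS proteins or share their sites, 9 were lower, 1 was higher and 3 were not called; the median difference was -1.20, beside -1.12 over all genes. ATF2, a JUN partner phosphorylated by JNK and p38, had 1.81 ± 1.08 TPM in siVCPIP1 and 20.4 ± 3.40 TPM in siControl. Its log2 fold change of -2.98 lay at -0.71 after GC correction, and at -0.31 and not called when that correction was made at a pseudocount of 0.1 TPM (limma, adjusted p = 0.0636). CREM and CREB1, cAMP-responsive factors, were lower by log2 fold changes of -2.31 and -2.17, calls that were lost after GC correction (limma, adjusted p = 0.0855 and 0.554). DDIT3 (CHOP), the stress factor that rose, did so under every scaling. Under median-of-ratios scaling 4 of the 13 were lower and 4 higher, under quantile normalization 3 were lower and 5 higher, and with the GC correction 4 were lower and 3 higher.

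Of the 6 YAP, TAZ and TEAD factors, the partners of AP-1 at enhancers, 4 were lower and TEAD4 was higher. YAP1, the coactivator, fell most (log2 fold change -3.33), and in siVCPIP1 had 2.37 ± 1.14 TPM, against 31.96 ± 4.64 TPM in siControl. WWTR1 (TAZ) was lower by a change of -1.78 but was called higher, at 0.35, after GC correction (limma, adjusted p = 0.0357). WWTR1 was not called under quantile normalization (-0.26, limma, adjusted p = 0.109). TEAD3 was lower at -0.79 but lay at 0.33 under median-of-ratios scaling and was not called (limma, adjusted p = 0.0571). Under quantile normalization TEAD3 was called higher, at 0.65 (limma, adjusted p = 0.00105). With the GC correction TEAD3 stayed lower, at -0.63 (limma, adjusted p = 0.0049). Single libraries decided 2 calls: TEAD3 lost its call without siControl replicate 2, and TEAD4 (0.35) lost its call without siControl replicate 2 or siVCPIP1 replicate 1 or 2 (limma, adjusted p up to 0.0554 and 0.109). After GC correction TEAD4 lay at 0.07 and was not called (limma, adjusted p = 0.518). Under these 2 scalings and GC correction, 3, 2 and 3 of the 6 were lower and 2, 3 and 1 higher.

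Kinases upstream of AP-1 went both ways, as did all genes tested (66.0% lower, 15.0% higher, median -1.12). Of 18 tested MAP kinases, their activators and the RSK and MSK kinases, 10 were lower and 3 higher, at a median difference of -1.17. MAP2K1 (MEK1) had 1.81 ± 1.47 TPM in siVCPIP1 and 27.9 ± 4.46 TPM in siControl, and MAPK9 (JNK2) and RPS6KA3 (RSK2) were lower by changes of -3.08 and -2.88. MAP2K2 (MEK2), the paralog of MEK1, was higher, with 645.3 ± 80.0 TPM in siVCPIP1 and 312.02 ± 39.04 TPM in siControl. The other 2 that rose were MAPK3 (ERK1, 0.37) and MAP2K7, the JNK activator (0.46). MAPK3 was not called without siControl replicate 2 or siVCPIP1 replicate 1, and MAP2K7 was not called without siControl replicate 2 or 3 or siVCPIP1 replicate 1 or 2 (limma, adjusted p up to 0.12 for each). After GC correction MAPK3 lay at 0.04 and was not called (limma, adjusted p = 0.770), and MAP2K7 lay at 0.48. The 3 lower and MAP2K2 kept their sign under all 3 corrections of scale and GC, where 8, 8 and 6 of the 18 were lower and 8, 8 and 5 higher. GC content was 50.4% in MAP2K1 and 65.5% in MAP2K2.

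Of 5 tested factors that drive FOS transcription, namely serum response factor (SRF), the ternary complex factors ELK1, ELK3 and ELK4, and the myocardin-related SRF cofactor MRTFA, 3 were lower and none higher. ELK3 had 2.36 ± 1.69 TPM in siVCPIP1 and 44.4 ± 9.22 TPM in siControl, and was lower under each scaling. SRF was lower by a change of -1.14, but lay at -0.04 under median-of-ratios scaling (limma, adjusted p = 0.851). Under quantile normalization SRF was called higher, at 0.34 (limma, adjusted p = 0.0457). With the GC correction SRF stayed lower, at -0.84 (limma, adjusted p = 0.00439). Of the 5, 2 were lower under each of the 3 corrections, beside 2 higher (median-of-ratios), 3 higher (quantile) and none higher (GC).

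Of 19 other tested immediate-early genes, 13 were lower and IER2 and GADD45B were higher, with a median of -1.09. KLF6 (log2 fold change -3.76), MYC (-3.60) and KLF4 (-3.53), transcription factors induced by growth signals, fell and were lower under every scaling. IER2 had 328.6 ± 65.5 TPM in siVCPIP1 and 133.3 ± 5.92 TPM in siControl, higher under every scaling, whereas GADD45B (0.43) lay at -0.10 after GC correction and lost its call in 5 of the 6 fits that left out a library, all but the one without siVCPIP1 replicate 2 (limma, adjusted p up to 0.122). It was also not called at a pseudocount of 0.1 TPM, with no filter, or with a filter of mean 5 TPM (limma, adjusted p 0.0511 to 0.0621). Of the 19, 9 were lower and 5 higher by median-of-ratios, 7 lower and 6 higher by quantile normalization, and 8 lower and 4 higher with the GC correction.

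Factors that shorten the life of JUN proteins or of AU-rich messages, together with the stabilising protein ELAVL1, were all lower: 10 of 10, with a median of -1.91 at a median GC content of 47.5%. In the bin of 47.4% to 50.5% GC, 85.1% of the genes tested were lower. HNRNPD (AUF1), which binds AU-rich elements, had 13.9 ± 7.91 TPM in siVCPIP1 and 107.2 ± 10.1 TPM in siControl. ZFP36L2, which recruits deadenylases to such elements, and ITCH, a ubiquitin ligase of JUN proteins, were lower by changes of -2.96 and -2.59. After GC correction HNRNPD lay at -0.70 and ITCH at -0.36, both called lower (limma, adjusted p = 0.00453 and 0.0322). When that correction was made at a pseudocount of 0.1 TPM, HNRNPD lay at -0.18 and ITCH at -0.45, neither called (limma, adjusted p = 0.220 and 0.0720). Under either scaling 8 of the 10 were lower, and with the GC correction 6, with none higher in these 3 fits. With that correction at a pseudocount of 0.1 TPM, 6 were lower and 1 was higher.

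Of 25 tested genes taken as textbook AP-1 targets, 18 were lower, 3 were higher and 4 were not called, around a median difference of -1.53. Their median GC content was 50.9%, and 69.8% of the genes tested were lower in the bin of 50.5% to 53.7% GC. F3 (tissue factor) had 3.06 ± 1.09 TPM in siVCPIP1 and 107.1 ± 21.0 TPM in siControl. The EGF receptor ligands AREG and EREG were lower by changes of -3.81 and -3.68, and these 3 genes were lower under every scaling. TIMP1, an inhibitor of metalloproteinases, had 828.7 ± 128.4 TPM in siVCPIP1 and 448.0 ± 32.7 TPM in siControl, and with TGFB1 and KRT18 it made up the 3 that were higher. KRT18 was not called under quantile normalization (0.16, limma, adjusted p = 0.134), nor with the GC correction at a pseudocount of 0.1 TPM (0.28, adjusted p = 0.0769). Median-of-ratios scaling left 12 lower and 7 higher, quantile normalization 15 lower and 5 higher, and the GC correction 11 lower and 5 higher.

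**Figure D5:**
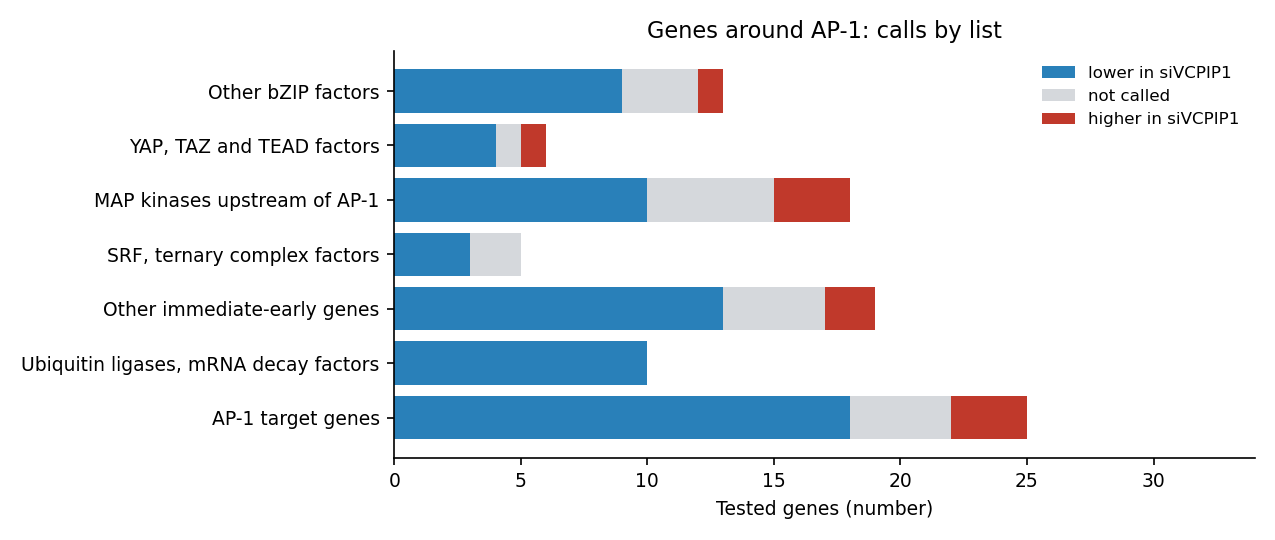
Number of tested genes in each list around AP-1 that were called lower (blue), not called (grey) or called higher (red) in siVCPIP1 against siControl (limma, adjusted p under 0.05). Lower genes make up all 10 of the ligase and decay list and 18 of the 25 AP-1 targets, beside 66.0% of all genes tested. With the GC correction, 6 of the 10 and 11 of the 25 were lower, beside 31.5% of all genes.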

How the data were processed

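RNA sequencing of 6 AsPC-1 libraries (3 siVCPIP1, 3 siControl) was used as deposited. The authors computed TPM per gene symbol, with values given to 2 decimals, per the file headers. Reads were placed on GRCh38.p13, according to the submitters' processing notes. The aligner, counter, annotation, strand setting and filters: not given in the sources used here. Since TPM carries no read numbers, library depth is unknown and neither counting intervals nor floors can be set.

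Genes averaging 1 TPM or more (10966) were compared as log2(TPM + 1) with limma 3.58.1 in R 4.3.3, using trended eBayes, two-sided tests and a model of group alone. Benjamini-Hochberg adjustment ran over all of them, with a threshold of 0.05. The pseudocount of 1 TPM understates changes of low genes. The 3 members under the filter were described by their values and tested in the fit with no filter. No p was computed for a list or for a sum or ratio of members.

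GC content, length and 3′ UTRs were read from GENCODE 29, using for each gene the protein-coding transcript with the longest coding sequence (10915 genes tested, 99.5%), which may not be the annotation behind the table. The correction removed each library's spline trend (5 degrees of freedom on GC content, 3 on log2 length, and their product). Promoters are from RefSeq (GRCh38.p14). The fits were tested on simulated data.

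The members and lists were chosen with earlier results of these data known. From each list, the 3 called members that changed most among those averaging 5 TPM or more are named (fewer where fewer qualified). Genes that make up a small count (DDIT3, TEAD4, MAP2K2, MAPK3, MAP2K7, IER2, GADD45B, TIMP1, TGFB1, KRT18), and HOOK2, ELAVL1, ELK1, ELK4, MRTFA, CDH1, LUM and CD68, were picked after their values were seen. Alternatives were pseudocounts of 0.1 and 0.5 TPM, no filter or a mean of 5 TPM, median-of-ratios and quantile scaling, the GC and length correction, a replicate block, and leaving out each library. The GC correction with a pseudocount of 0.1 TPM was added after the data were seen.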

Additional observations from a re-analysis of the deposited data

How the results depend on the processing

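JUND was higher in all alternatives run, from 0.35 to 2.14, and was not called with the GC and length correction (0.38) or with that correction at a pseudocount of 0.1 TPM (0.35). Median-of-ratios scaling gave 0.66 for JUN, 1.66 for JUNB, 1.25 for FOSL1 and 0.81 for FOSL2, and quantile normalization 0.99 for JUN, 0.65 for JUNB and 0.92 for FOSL2, all called. The GC and length correction gave 0.16 for JUN, -0.067 for JUNB, -0.23 for FOSL1 and 0.79 for FOSL2, and at a pseudocount of 0.1 TPM it gave 0.23, -0.096, -0.23 and 1.04; of these, those of FOSL2 were called. Over all genes, 1646 were called higher and 7241 lower. Median-of-ratios scaling gave 4416 higher, quantile normalization 4625 higher and 4258 lower, the GC and length correction 4136 and 3442 (4025 and 3402 at a pseudocount of 0.1 TPM), and a filter of mean 5 TPM, with fewer genes tested, 4679 lower. Among other named genes, the direction turned with the GC and length correction for VCPIP1 (0.24), WWTR1 (0.35) and GADD45B (-0.10), and at a pseudocount of 0.1 TPM for CREB1 (0.49), WWTR1 (0.92) and GADD45B (-0.15). It also turned for TEAD3 under median-of-ratios scaling (0.33) and quantile normalization (0.65), and for SRF under quantile normalization (0.34). The cause of these shifts was not tested, and the nearest profiles were computed on the log2(TPM + 1) scale alone.

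Leaving out 1 library gave -0.84 to -0.16 for JUN, 0.14 to 0.69 for JUNB, 0.83 to 1.07 for JUND, -0.040 to 0.072 for FOSL1 and -0.50 to -0.23 for FOSL2. FOSL1 lay at -0.013 without siControl replicate 3. All-gene counts ran from 1245 to 1851 higher and 6742 to 7772 lower, and the JUN-family share differed by 3.40 to 9.06 percentage points.

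Same-numbered libraries did not deviate together in every pair (r = 0.53, -0.27 and 0.16). Deviations from a mean of 3 libraries depend on each other, so these values cannot settle whether the numbers pair the samples. A replicate block gave 1586 higher and 7085 lower and left the member calls as they were (JUND adjusted p = 0.00124, limma). The block joined to the GC and length correction gave 4105 higher and 3475 lower over all genes, and 0.16 (JUN), -0.067 (JUNB), 0.38 (JUND, adjusted p = 0.0177), -0.23 (FOSL1), 0.79 (FOSL2), 0.24 (VCPIP1), 0.35 (WWTR1) and -0.10 (GADD45B). At low TPM, as in FOS, FOSB and BATF3, the unknown depth limits what a difference can show.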
